A study of Drosophila melanogaster with 12 samples.

Results

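Polycomb binding was high in 3 larval sources at the same time (central brain, fat body and the repo+ glia of the brain) in 517 of the 9816 bins of 10 kb that could be compared, which is 5.27% of them and 5.17 Mb of the Drosophila melanogaster genome. A bin was compared when it lay on 2L, 2R, 3L, 3R, 4 or X and held at least 5 scored GATC fragments in each of the 3 profiles. It was called high when the mean log2 ratio of Dam-Polycomb to Dam over its fragments lay at least 2 above the median of the profile, and shared bins were those at or above this threshold in all 3 profiles. The regions were thus chosen by the same levels that are given below, which are a description and were not tested.

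Polycomb is a chromodomain protein that binds trimethylated lysine of histone H3 and belongs to Polycomb repressive complex PRC1. Together with the methylating complex PRC2 it keeps developmental regulator genes, the Hox genes first among them, silent in the cells where they should stay off. In flies the complexes are recruited by Polycomb response elements and the mark then spreads over long domains around the target genes. Many of these regulators stay off in most larval tissues.

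Binding was mapped by DamID, in which the bacterial adenine methyltransferase Dam is joined to Polycomb and marks GATC sites close to where Polycomb sits. Free Dam, which marks open chromatin, serves as the reference. The series holds 12 libraries in 6 groups of 2 replicates, and each deposited value is the authors' mean over replicates. All animals were wandering larvae of the third instar raised at 25 °C, and every transgene sat at the ZH51C landing site under an hsp70 promoter. Brain libraries came from males, 20 larvae per sample, and were y,w, with FL.hsp70P as the promoter of Dam[4-HT-intein@L127C] or of its Dam-PC form. For the brain Dam-only control each replicate comprised 3 technical replicates. The intein in this Dam responds to 4-hydroxytamoxifen, and the brains were left uninduced. Fat body libraries came from males of the same 2 genotypes, 10 larvae per sample, on food with 25 µM 4-hydroxytamoxifen. Glial libraries came from central brains of 20 larvae of both sexes pooled, and were y,w/w with repoFlp5 over the construct min.hsp70P-STOP#1-Dam or its Dam-PC form. A recombinase expressed from the glial gene repo removes the stop cassette there. Tissue therefore changed together with induction between brain and fat body, and together with DamID system and sex in each comparison with glia. Between fat body and glia the food with 4-hydroxytamoxifen differed as well. These cannot be told apart. The central brain contains glia, so those profiles overlap in cells. The table holds no expression values, so the labelled tissues were not checked against marker genes.

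Of 356504 fragments, 34.4% had a score in the brain profile, 42.8% had one in the fat body profile and 55.0% in the glial profile, and the profile medians were -1.24, 0.09 and -0.60. The read depth is unknown. No single replicate was analysed here, so no error between animals and no test across animals can be given. The error of a bin mean stated here is the scatter between odd-numbered and even-numbered fragments of the same bin, 0.24 (brain), 0.37 (fat body) and 0.21 (glia) for the shared bins. It measures scatter along the chromosome in the averaged profile. Centred values are bin means minus the profile median, on the log2 scale, and are used throughout.

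The shared bins made up different parts of what was high in each profile. In brain 1372 bins (14% of those compared) were at or above the threshold, and 517 of them, 37.7%, were also high in fat body and glia. Fat body had 1021 such bins (10.4%), of which 50.6% were shared, and glia had 981 (9.99%), of which 52.7% were shared. The remaining brain bins were mostly high in brain alone (528 bins) or in brain and glia (259 bins), and only 68 were high in brain and fat body without glia. In fat body 384 bins were high there alone, and 52 were high in fat body and glia but not in brain. Read by pairs, a bin high in fat body and in glia was also high in brain in 90.9% of 569 cases. A bin high in brain and in fat body was also high in glia in 88.4% of 585 cases. A bin high in brain and in glia was high in fat body in 66.6% of 776 cases.

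Within the shared bins brain lay highest above its own median in most bins, an order that depended on the processing. The centred brain values ran from 2.11 to 8.67 with a median of 5.91, the fat body values from 2.00 to 7.15 with a median of 3.45, and the glial values from 2.00 to 6.41 with a median of 4.45. Over all compared bins the medians were -0.30, 0.23 and -0.08, and the standard deviations 2.40, 1.42 and 1.68. The brain profile was thus the widest, and the fixed threshold of 2 was not equally strict in the 3 profiles. Brain was the highest profile in 458 of the 517 bins, and fat body was the lowest in 377. The order brain, glia, fat body held in 356 bins (68.9%). Quantile normalization, which gives the 3 profiles 1 distribution, was run only on fragments scored in all 3 profiles. The rule applied again to these values gave 503 bins, 483 of them among the 517. Their medians were 4.31 (brain), 3.91 (fat body) and 4.73 (glia), so that glia instead of brain was highest. Scaling, fragments and bins thus changed together.

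**Figure D1:**
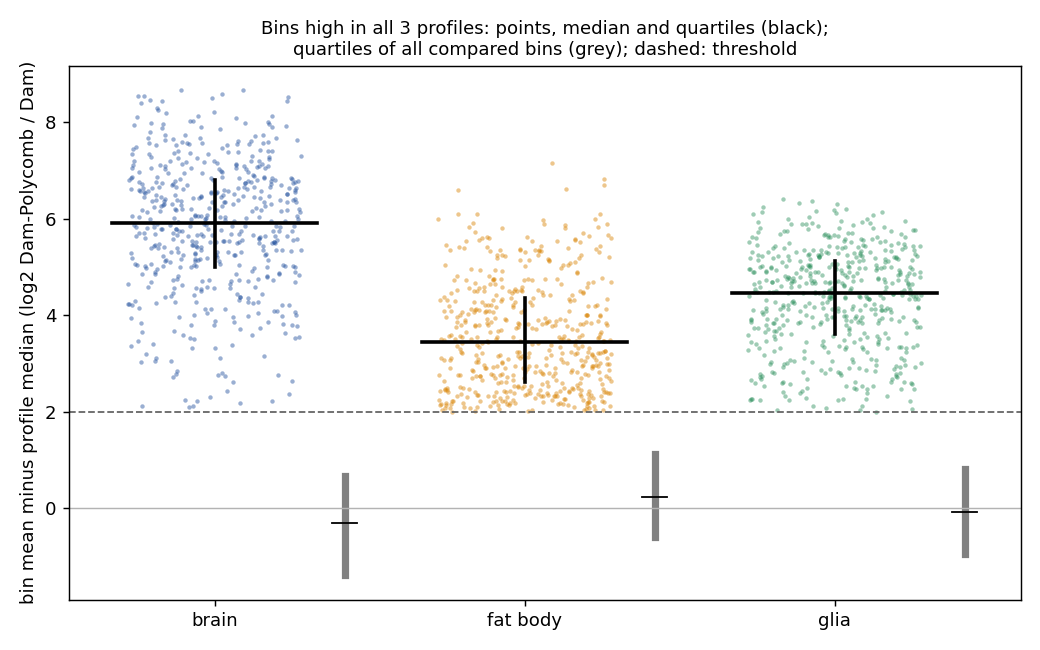
Centred bin means (log2, y axis) of the 517 shared bins in brain, fat body and glia (x axis), 1 point per bin, with the median and quartiles in black and the quartiles of all 9816 compared bins in grey. The brain points centre on 5.91, the glial points on 4.45 and the fat body points on 3.45, with many fat body points just above the threshold at 2. In the bins that passed the rule after quantile normalization, not drawn here, the glial median was the highest.

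A level at or above 3 in all 3 profiles was reached by 300 shared bins, at or above 4 by 151 and at or above 5 by 46. Across the 517 bins Pearson's r was 0.63 for brain with glia (Spearman's rho 0.64), 0.32 for brain with fat body (0.31) and 0.46 for fat body with glia (0.47). Neighbouring bins share domains and the threshold cuts off low values, so these values describe the bins and are given without a p-value.

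The shared bins were clustered along the chromosomes. They formed 176 stretches of directly adjacent bins, and 445 of the 517 bins (86.1%) had a shared bin next to them. Counted with neighbours of the same class only, this share was 68.0% for bins high in brain alone, 61.0% for bins high in brain and glia and 38.8% for bins high in fat body alone. Neighbours of another class were left out. Of the 312 bins directly beside a shared stretch, 120 were high in brain and glia, a class that held 259 of all 9816 compared bins. The shares of bins with a neighbour are therefore not a like comparison. In 31 stretches at least 5 shared bins followed each other, and these held 241 bins. The longest ran over 15 bins. When stretches separated by at most 5 bins (50 kb) were joined, 117 clusters remained, 20 of which spanned at least 100 kb and together held 250 bins, while 38 consisted of a single bin. The joining distance was chosen after the data were seen. At most 2 bins gave 132 clusters, 13 of at least 100 kb, and parted vestigial from Psc and Su(z)2, and at most 10 bins gave 106 clusters, 27 of at least 100 kb. Clusters of a single bin were lower, with medians of 5.12 (brain), 2.46 (fat body) and 3.72 (glia), against 5.94, 3.51 and 4.60 in clusters of at least 5 bins.

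Positions here are in dm3, the release 5 genome of the deposited table, counted from 1. The table names no genes. Locus names are given as background, from the well-known places of 27 classic developmental and Polycomb loci on the fly map, and were not read from an annotation of this build. All 45 gene symbols of these loci lie on the stated arm in RefSeq release 6, and 22 of 22 neighbouring pairs of loci have the same order along the arm there. The loci fell in 26 clusters that held 244 of the 517 shared bins. They were chosen with the positions of the clusters known, so their number is no measure of how many Polycomb targets are shared.

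The Hox complexes held the largest clusters. The bithorax complex, whose genes Ubx, abd-A and Abd-B specify the posterior trunk, lay in a cluster on 3R from 12490001 to 12800000 in which 27 of 31 bins were shared. Its shared bins averaged 7.71 (brain), 3.42 (fat body) and 5.70 (glia). The other 4 bins of the cluster were also far above the median in brain (7.64 to 7.99) and glia (5.09 to 6.01), and missed the threshold in fat body alone (1.10 to 1.90). The first 14 bins, from 12490001 to 12630000, were an unbroken shared stretch with fat body values from 2.69 to 5.54. The Antennapedia complex, with lab, Dfd, Scr and Antp for the head and anterior trunk, lay in a cluster of 400 kb on 3R from 2490001 to 2890000 with 28 shared bins of 39 compared. These averaged 6.70 (brain), 3.85 (fat body) and 4.83 (glia). Its longest shared stretch ran over 11 bins from 2650001 to 2760000, after which the 4 bins from 2760001 to 2800000 stayed at 6.54 to 6.96 in brain and 4.14 to 5.07 in glia but at 0.31 to 1.67 in fat body. Glia too was below the threshold in the bins from 2520001 (1.96), 2530001 (1.62), 2590001 (1.99) and 2640001 (1.83). In the bin from 2590001 fat body was at 2.36, so that glia alone missed it.

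At engrailed and invected, neighbouring homeodomain genes of the posterior compartment, Polycomb was high in all 3 profiles without a break. The stretch on 2R from 7350001 to 7460000 held 11 shared bins with means of 7.39 (brain), 4.10 (fat body) and 4.57 (glia). All 3 profiles had a high point in the first 2 bins and another in the bin from 7410001. That bin had 8.40 (brain), 5.88 (fat body) and 5.35 (glia), and the bin from 7390001 between the high points had 5.87, 2.87 and 3.61. The step at the lower edge was steep in every profile: the bin from 7340001 had -0.28 (brain), -0.69 (fat body) and -1.09 (glia), and the next bin 7.57, 5.99 and 5.37. Further out on this side, from 7300001 to 7330000, fat body was again above the threshold (2.62 to 3.55) and glia was not (0.39 to 0.89). At the upper edge brain and glia fell more gradually, and the bin from 7460001 had 4.02 (brain), 0.79 (fat body) and 2.45 (glia).

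**Figure D2:**
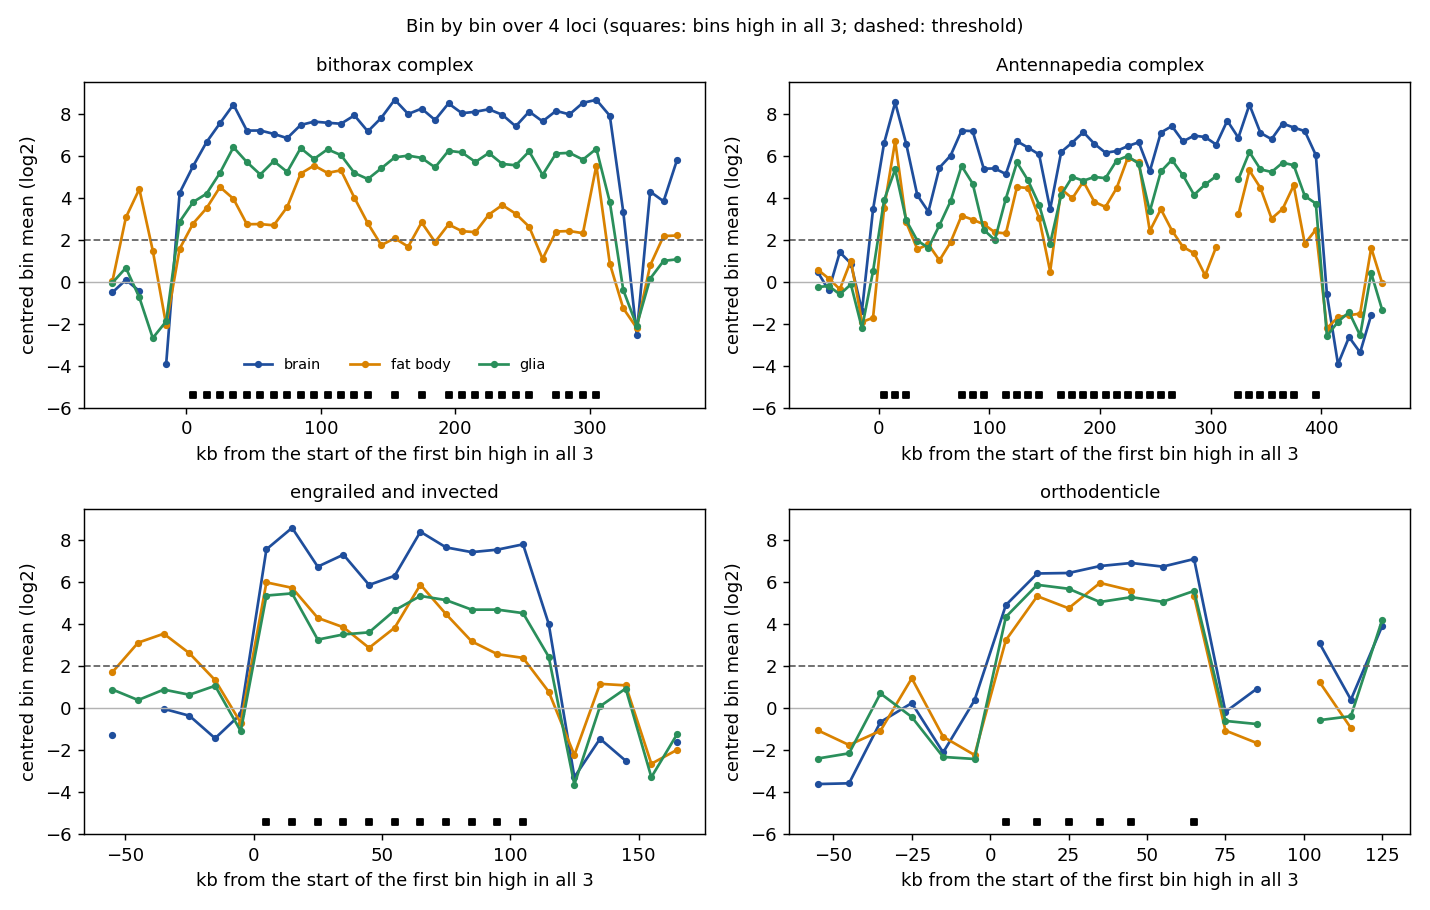
Centred bin means (log2, y axis) of brain, fat body and glia against the distance in kb from the start of the first shared bin (x axis) at the bithorax complex, the Antennapedia complex, engrailed and invected, and orthodenticle, where squares mark shared bins and a missing point marks a bin with under 5 scored fragments in that profile. Over the Hox complexes the brain line stays above the threshold at 2 and the fat body line crosses it several times. The glial line also falls below it in the Antennapedia complex. Over the clusters of engrailed and invected and of orthodenticle all 3 lines stay above it.

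Segmentation genes were among the shared loci. The pair-rule gene even-skipped lay in a single shared bin on 2R from 5860001 to 5870000 at 7.29 (brain), 4.22 (fat body) and 4.39 (glia). The odd-paired cluster on 3R from 650001 to 730000 had 7 shared bins of 7 compared, with means of 6.78, 4.74 and 4.77 in the same order of profiles. At the sloppy-paired genes on 2L from 3820001 to 3860000 the 4 shared bins averaged 7.10, 2.73 and 3.47. The gut and posterior homeobox gene caudal was in a pair of bins on 2L from 20760001 to 20780000, which averaged 7.16, 4.75 and 5.04. At wingless, a Wnt ligand gene, 5 of the 7 bins on 2L from 7290001 to 7360000 were shared, with a lower brain mean of 4.69 beside 3.11 in fat body and 4.05 in glia.

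Genes of the head and eye followed. The head gap gene orthodenticle lay on X from 8500001 to 8570000 in a cluster where 6 of 7 bins were shared, at 6.43 (brain), 5.04 (fat body) and 5.31 (glia). The seventh, from 8550001, had 6.74 in brain and 5.07 in glia but only 4 scored fragments in fat body and was not compared. The head gap gene empty spiracles on 3R from 9670001 to 9760000 had 9 of 9 bins shared, with 6.47 (brain), 3.09 (fat body) and 5.03 (glia). Of the retinal determination genes, eyes absent lay in a pair of bins on 2L from 6530001 to 6550000 (6.42, 4.51 and 4.44 in brain, fat body and glia). The dachshund cluster on 2L from 16390001 to 16490000 had 8 of 10 bins shared at 4.84, 4.13 and 4.02.

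Among genes for appendages, wing and body wall, the single Distal-less bin on 2R from 20700001 to 20710000 was 1 of the most uneven, at 6.94 (brain), 2.04 (fat body) and 2.81 (glia). The wing selector vestigial, on 2R from 8770001 to 8800000, was more even, with 6.09 to 6.48 in brain, 4.14 to 5.34 in fat body and 4.68 to 5.20 in glia over 3 bins. The iroquois complex, whose homeobox genes ara, caup and mirr pattern wing and eye, had the longest unbroken stretch of all, 15 bins on 3L from 12570001 to 12720000 at 5.71, 4.29 and 4.71. At the homeobox gene homothorax 13 of 17 bins were shared on 3R from 6330001 to 6500000 (4.84, 3.08 and 3.93). At the zinc finger gene teashirt 6 of 12 bins on 2L from 21790001 to 21910000 were shared (6.51, 2.81 and 4.46), and at the spalt zinc finger genes also 6 of 12, on 2L from 11340001 to 11460000 (5.76, 3.23 and 4.36). At the homeobox gene cut on X from 7400001 to 7500000, 9 of 10 bins were shared (4.62, 3.54 and 3.05).

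The T-box, POU and NK genes gave further long clusters. On X the bins from 4270001 to 4520000, at the T-box gene bifid (optomotor-blind) and beyond it, held 20 shared bins of 22 compared, with means of 5.89 (brain), 4.30 (fat body) and 4.34 (glia). This cluster held the highest fat body bin of all, from 4310001 to 4320000, at 6.18 (brain), 7.15 (fat body) and 5.26 (glia), with 6 scored fragments behind the fat body value. The Dorsocross T-box genes on 3L from 8990001 to 9040000 had their highest mean in glia and a fat body mean close to that of brain, at 4.12 (brain), 4.17 (fat body) and 4.65 (glia). After quantile normalization these were 3.01, 4.82 and 4.96, and the iroquois complex then had the same order of profiles, at 3.96, 4.61 and 5.01. The T-box pair midline and H15 on 2L from 5370001 to 5470000 had 6 shared bins of 7 compared (6.34, 2.99 and 4.97). The POU genes nubbin and pdm2 had 8 of 8 compared bins shared on 2L from 12570001 to 12660000 (5.75, 2.98 and 4.52), and ventral veins lacking 17 of 22 on 3L from 6760001 to 6990000 (4.97, 3.42 and 3.48). In the NK homeobox cluster, with tin, bap and slou of the mesoderm, 12 of 18 compared bins on 3R from 17200001 to 17390000 were shared (6.91, 3.02 and 4.75).

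Genes for Polycomb group proteins were themselves covered. Psc and Su(z)2, neighbouring genes of which Psc encodes a core subunit of PRC1, lay in the stretch of 10 bins on 2R from 8830001 to 8930000. There the means were 5.53 (brain), 5.22 (fat body) and 4.07 (glia), with fat body above glia. After quantile normalization the shared bins of vestigial, Psc and Su(z)2 averaged 4.31 (brain), 5.69 (fat body) and 4.75 (glia), so that fat body was then the highest. On the centred scale the last bin, from 8920001, had 7.13 (brain), 6.59 (fat body) and 4.40 (glia). The polyhomeotic pair, which encodes another PRC1 subunit, lay in a single bin on X from 2020001 to 2030000 at 5.20, 4.50 and 3.65.

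The difference between brain and the other profiles was not the same at all shared loci. In 414 shared bins (80.1%) brain was over 1 higher than fat body, against 19.2% of all compared bins, and in 11 fat body was over 1 higher than brain, against 40% of all bins. Brain was over 1 higher than glia in 360 shared bins (21.9% of all bins) and over 1 lower in 8 (28.9%). Glia was over 1 higher than fat body in 209 (12.4%) and over 1 lower in 30 (24.8%). The same values chose the bins, so nothing is read from the contrast with all bins. After quantile normalization of the fragments scored in all 3 profiles, 503 bins passed the rule, 483 of them among the shared bins. Among these 503 bins brain was over 1 higher than fat body in 164 and over 1 lower in 89. Brain was over 1 higher than glia in 33 of them and over 1 lower in 114, so that brain against glia turned. Scaling, fragments and bins changed together, so the 2 sets of counts are not a like comparison.

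The ranking of loci by the difference between brain and fat body was similar under both scalings, but the direction of the difference turned in some clusters. Over the 39 clusters with at least 5 shared bins, the mean brain value minus the mean fat body value ran from -0.07 to 4.30 with a median of 2.18. Among the named loci in these 39 clusters it was highest at the bithorax complex (4.30), the NK homeobox cluster (3.89) and teashirt (3.70). At the other end of these named loci it was -0.04 at Dorsocross, 0.57 at vestigial with Psc and Su(z)2 and 0.71 at dachshund. After quantile normalization the same loci had 2.39, 1.73 and 2.02, and -1.80, -1.37 and -1.15. Named loci with fewer shared bins were left out of this ranking. On the centred scale Distal-less (4.91, 1 shared bin) and sloppy-paired (4.37, 4 shared bins) lay above the bithorax complex, and polyhomeotic (0.70, 1 shared bin) lay just below dachshund. Unnamed clusters lay near both ends too, on the centred scale at 3.73 on 3R from 12200001, -0.07 on 3L from 10310001 and 0.66 on X from 8630001. The ranks of the 39 clusters by the 2 scalings correlated at 0.96 (Spearman), as a description over clusters of the same profiles. In 2 of the 39 clusters fat body was above brain, and in 15 after quantile normalization. In 5 of the 39 clusters fat body was above glia, and in 11 after quantile normalization.

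**Figure D3:**
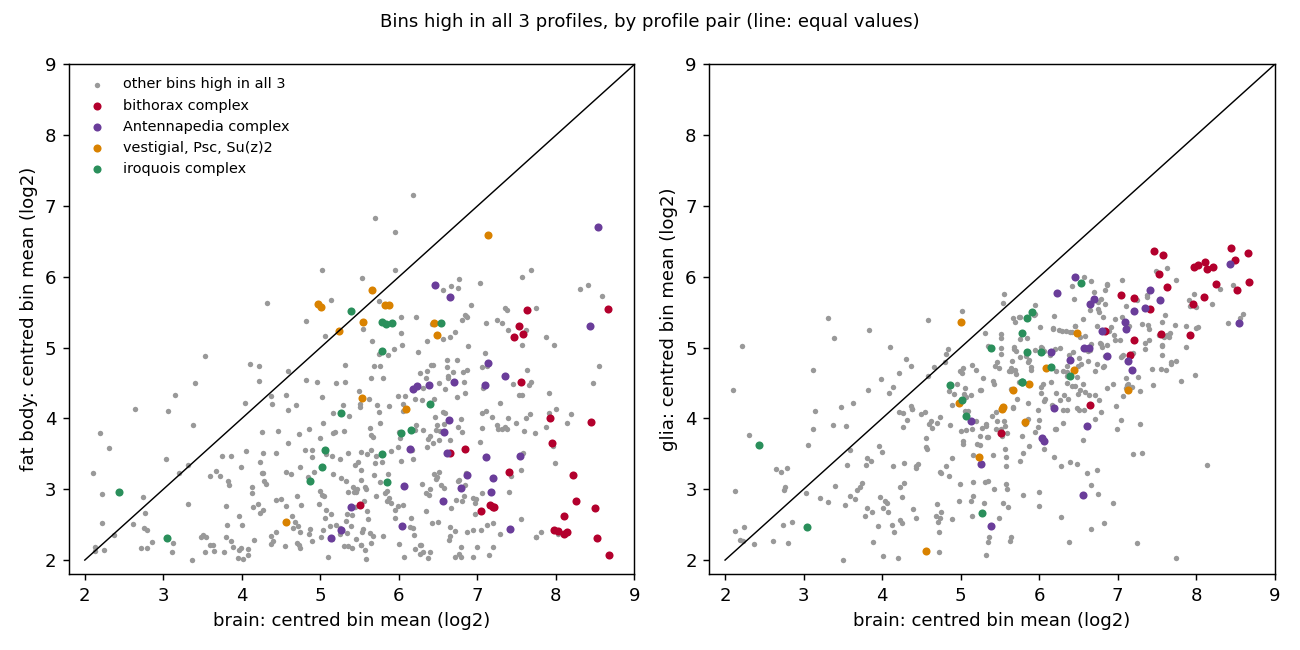
Centred bin means (log2) of the 517 shared bins, brain (x axis) against fat body (left panel, y axis) and against glia (right panel, y axis), with 4 loci in colour and the line of equal values. The bithorax complex bins lie far below the line on the left, at 2.08 to 5.54 in fat body for brain values up to 8.67, and most vestigial, Psc and Su(z)2 bins lie nearer to the line of equal values.

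The bithorax complex held the most uneven bins between fat body and the other profiles. The largest excess of brain over fat body, 6.60, was in the bithorax bin on 3R from 12640001 to 12650000, at 8.67 (brain), 2.08 (fat body) and 5.93 (glia). The next ones, from 12780001 (6.21) and from 12680001 (5.76), lay in the same complex, and the 3 largest excesses of glia over fat body, 3.72 to 3.85, did too. The largest excess of brain over glia, 5.71, was on X from 12510001 to 12520000, at 7.74 (brain), 2.32 (fat body) and 2.03 (glia). On 3R from 19120001 to 19130000 glia was the low profile, at 2.24 beside 7.25 in brain and 5.39 in fat body. Next in this direction was a sloppy-paired bin on 2L from 3830001, at 8.14 (brain), 3.94 (fat body) and 3.34 (glia). Excesses over brain were smaller on this centred scale. Fat body exceeded brain by 1.60 on 3R from 3770001 (3.79 and 2.19) and by 1.48 in the next bin from 3780001, and by 1.34 on 3L from 610001. Glia exceeded brain by 2.81 on 3R from 26890001 (5.02 and 2.21), by 2.29 in the bin after it and by 2.11 on 2R from 13700001. Fat body exceeded glia by 3.15 in the bin on 3R from 19120001, by 2.25 on 2L from 1960001 and by 2.20 in the last Psc and Su(z)2 bin.

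Ranked by their lowest profile, the highest shared bins were spread over several loci. The Antennapedia complex bin on 3R from 2710001 to 2720000 had a brain mean of 6.46 over 17 fragments (SD 1.20), a fat body mean of 5.89 over 13 (SD 1.13) and a glial mean of 5.99 over 14 (SD 1.16). The bin after it, from 2720001, ranked close behind with 6.64, 5.71 and 5.62. A bin on 3R from 4000001, within an unnamed stretch of 9 bins from 3960001, had 6.66, 5.87 and 5.94, and one on X from 5480001 had 8.31, 5.83 and 5.83. The X bin from 8690001 had 5.95, 6.10 and 5.60, the caudal bin on 2L from 20770001 had 7.75, 5.57 and 5.95, and the bin on 2L from 18790001 had 6.75, 5.84 and 5.54. The bithorax bins from 12790001 (8.67, 5.54 and 6.34) and from 12580001 (7.63, 5.54 and 5.85) and the X bin from 5900001 (5.53, 5.99 and 5.63) completed the first 10. In these bins the lowest profile lay at least 5.53 above its median.

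Among the 10 longest stretches 3 have no name given here. They lay on 2L from 18720001 to 18820000 (10 bins; 5.79 in brain, 3.61 in fat body, 4.45 in glia), on 3R from 3960001 to 4050000 (9 bins; 5.48, 4.03 and 4.22) and on 3L from 14100001 to 14190000 (9 bins; 5.55, 3.90 and 4.36). The longest stretch on X was the 13 bins from 4270001 to 4400000 in the bifid cluster, with 5.40, 4.30 and 4.27, and 7 further shared bins of that cluster lay from 4450001 to 4520000.

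Between the stretches of the clusters lay 104 bins, of which 84 could be compared. Fat body was below 2 in 81 of them, which is near the 94.6% of all 9299 compared bins that were not shared. In 58 fat body alone was below 2, a class that held 259 of the 9299, in 14 fat body and glia, in 9 all 3 profiles, in 2 glia alone and in 1 brain and glia. Their medians were 4.60 (brain), 1.40 (fat body) and 2.72 (glia), each above the median of its profile. Which bins count as interruptions depends on the joining distance: with stretches joined over at most 2 bins, fat body alone was below 2 in 29 of 36 compared bins, and over at most 10 bins in 78 of 165. Of the 20 bins that could not be compared, 18 had fewer than 5 scored fragments in fat body, 16 of them in fat body alone. Over all arms, 28 bins were high in brain and glia with too few scored fragments in fat body, and in 14 of these the few scored ones averaged at or above the threshold.

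Just outside the clusters, brain was more often at or above the threshold than the other profiles. Around the 60 clusters with at least 3 shared bins, the outermost shared bins had medians of 5.70 (brain), 2.96 (fat body) and 4.05 (glia) (120 bins). The first bin outside had medians of 2.98, 0.80 and 1.40 (110 bins). It was still at or above the threshold in brain in 61.8% of cases, in glia in 35.5% and in fat body in 10.0%, where a bin cannot reach it in all 3 by construction. In the second bin outside these shares were 35.2%, 13.9% and 7.41%, and the medians 0.40, 0.35 and 0.36. From 40 to 100 kb outside, the shares at the threshold were 10.2% to 14.1% in brain, 2.86% to 8.65% in glia and 1.02% to 9.62% in fat body, against 14%, 9.99% and 10.4% of all compared bins. Directly beside a stretch lay 312 bins, some of them between stretches of the same cluster. Of these, 120 were high in brain and glia, 45 in brain alone, 14 in brain and fat body and 80 in no profile. These classes made up 2.64%, 5.38%, 0.693% and 80.0% of all compared bins. A further 8 were high in glia alone, 6 in fat body alone and 5 in fat body and glia, and 34 could not be compared.

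**Figure D4:**
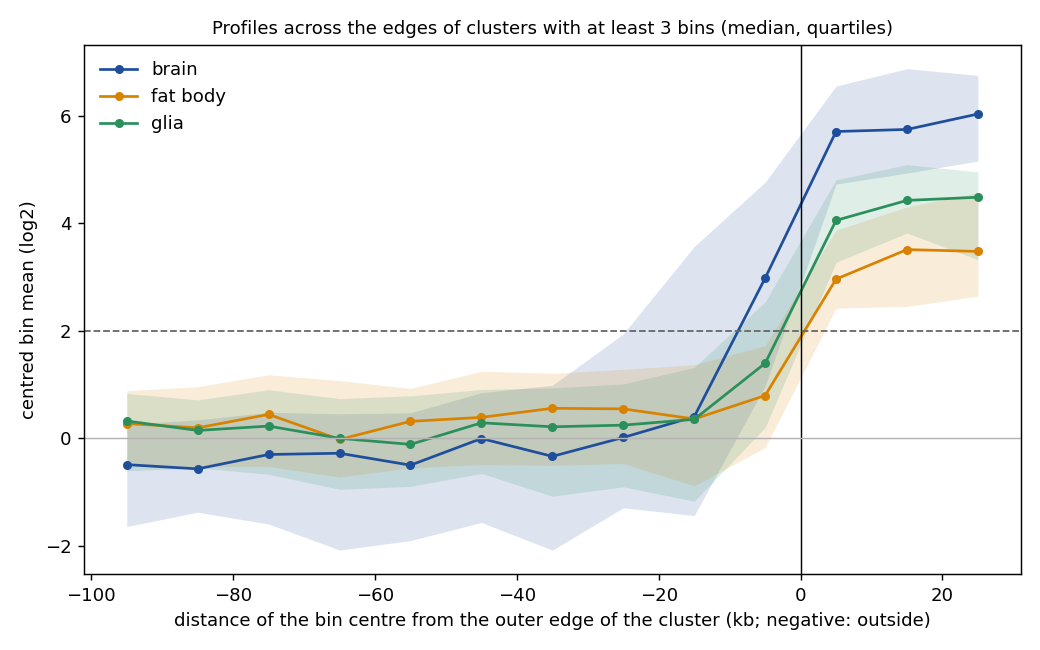
Median (line) and quartiles (band) of the centred bin mean (log2, y axis) in brain, fat body and glia against the distance of the bin centre from the outer edge of a cluster in kb (x axis, negative outside). Brain falls from 5.70 to 2.98 and then 0.40 over the first bins outside, whereas fat body is at 0.80 in the first bin and all 3 lines lie near 0 beyond that.

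Inside the shared bins nearly every scored fragment was raised. Of 8307 scored fragments in brain 99.4% lay above the profile median, of 6080 in fat body 97.8% and of 10546 in glia 99.4%, against 51.0%, 53.6% and 53.4% in all compared bins. The 5th percentile was 2.51 (brain), 0.74 (fat body) and 1.74 (glia). The raised values were therefore not limited to single fragments of a bin; the rule used bin means of the same scores, so this too is a description. When the rule was applied to the odd-numbered fragments alone, with at least 3 odd-numbered and 3 even-numbered ones per bin, 497 bins passed, and 446 of these (89.7%) also passed on their even-numbered fragments. Both sets of fragments come from the same libraries.

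The bin means chose the regions, but the course of the scores within a bin was not used. After subtracting each bin's own mean, the scores of 5543 fragments scored in all 3 profiles in 510 shared bins correlated (Pearson) at 0.45 for brain with fat body, 0.49 for brain with glia and 0.55 for glia with fat body. In the other 8914 bins with at least 5 such fragments the values were 0.34, 0.38 and 0.49. The highest fragment of a bin was the same in all 3 profiles in 40 of the 510 bins (7.84%), close to the 7.62% in the other bins, which had a median of 8 such fragments against 11. Fragments share their length, base composition and mappability between the profiles, and the part of these in the correlations was not tested.

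The shared bins had a median of 28 GATC fragments per bin (quartiles 21 and 36), against 26 in the other compared bins (17 and 35), and a median fragment length of 184 bp against 200 bp. Of fragments of at least 200 bp, 90.8% had a score in brain inside shared bins against 71.5% in the others. The brain share was similar in the other classes of brain-high bins, at 87.6% in bins high in brain alone, 90.9% in those of brain with glia and 91.1% in those of brain with fat body. In glia the shares were 95.1% inside shared bins and 89.9% in the others. In fat body the direction was the opposite, with 72.1% inside and 79.1% outside. The fat body share was as low in bins high in glia alone (71.3%) and near it in brain-only bins (73.3%) and in those of brain with glia (74.8%). The other classes of fat body-high bins were higher, at 81.4% in bins high in fat body alone, 79.2% in those of brain with fat body and 80.4% in those of fat body with glia. How the authors decided which fragments to leave unscored is not stated in the sources used here. The fat body means rest on a median of 11 scored fragments per shared bin, against 16 in brain and 20 in glia.

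**Figure D5:**
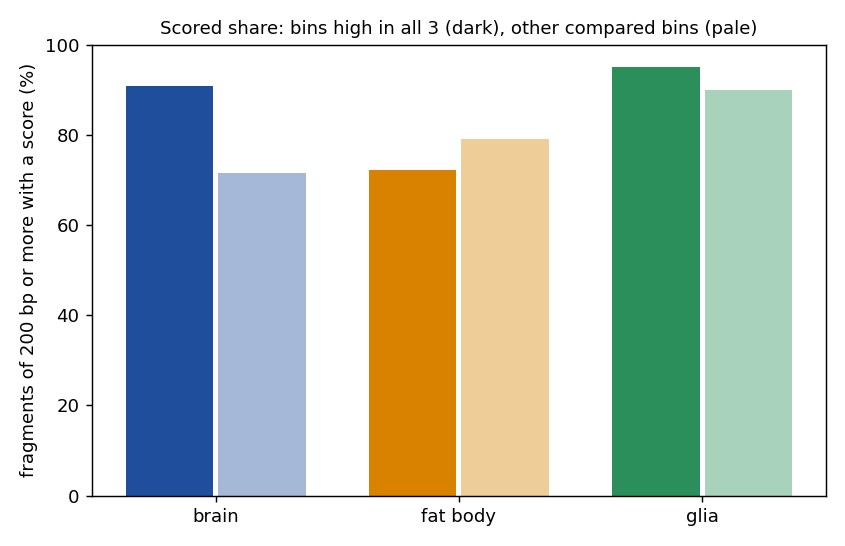
Share of GATC fragments of 200 bp or more that carry a score (%, y axis, from 0) in brain, fat body and glia (x axis), in shared bins (dark bars) and in the other compared bins (pale bars). Shared bins have the higher share in brain (90.8% against 71.5%), as other brain-high bins do, and the lower one in fat body (72.1% against 79.1%).

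All 6 arms carried shared bins. They made up 4.92% of the compared bins on 2L (93 bins), 4.12% on 2R (72), 4.60% on 3L (93), 6.11% on 3R (152), 6.04% on X (95) and 12.4% on chromosome 4 (12 of 97). The 12 bins of chromosome 4 had medians of 5.67 (brain), 3.46 (fat body) and 4.48 (glia), close to those of all shared bins. On X the medians were 5.68, 3.72 and 4.45, against 5.99, 3.37 and 4.46 on the other arms. On 2L the first bin of the arm, from 1 to 10000, was itself shared at 6.56 (brain), 5.81 (fat body) and 5.41 (glia).

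The threshold passed through a continuous range of values. The 5 bins just inside it had a lowest profile of 2.00 to 2.03, which was fat body in 4 of them, among them a spalt bin on 2L from 11390001 (5.58 in brain, 2.02 in fat body, 3.34 in glia) and a homothorax bin on 3R from 6330001 (4.01, 2.02 and 2.73). The 5 just outside had a lowest profile of 1.99 to 2.00, again fat body in 4. On 2L from 21850001, in the teashirt cluster, the values were 6.77, 2.00 and 3.81, and on X from 5440001 they were 6.98, 2.00 and 5.01. The differences across the threshold were smaller than the scatter of a bin mean.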

How the data were processed

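Polycomb binding was measured by DamID-seq in 12 libraries of larval brain, fat body and glia. The deposited table gives, for each GATC fragment and profile, the log2 ratio of Dam-Polycomb to Dam averaged over replicates by the authors. cutadapt, Bowtie2, HTSeq and build dm3 are named in the submitters' processing notes. Their versions and the rule that leaves fragments without a score are not given in the sources used here. All value columns were mapped to a tissue (0 unmapped). From these log2 values bin means, centred values, stretches and clusters were computed with Python 3.11.15, numpy 2.4.6, pandas 2.3.3 and scipy 1.17.1, and figures with matplotlib 3.10.9. The scripts were tested on simulated data. Bins named in the text are the 10 with the highest lowest profile, the 3 with the largest difference per pair and direction, the 5 just inside and outside the threshold, and the 10 longest stretches; loci were added after values were seen. The members and lists were chosen with earlier results of these data known. Alternatives changed the bin size and start, fragment minimum, threshold, summary, fragments used, centring, scaling and arms. Promoter sequences and motifs are not shown, since no genome of this build was used here.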

Additional observations from a re-analysis of the deposited data

How the results depend on the processing

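No paired analysis was possible because the deposited values are means over replicates, and for the same reason no replicate could be left out. Of 154 counts and shares under the alternatives, 113 stayed within 1.5 times (counts) or within the 95% binomial interval (shares) of the main value and 41 moved, and so did 291 of 647 values of named bins and 14 of 56 medians, by more than the scatter of a bin mean or, for GATC counts, by over 1.5 times. None of the 647 values of named bins changed sign, which bins chosen near or above 2 would rarely do. A change of sign was not looked for in the counts, shares and medians. The direction between brain and glia, whose counts are among those that moved, did turn under quantile normalization. The binomial interval treats bins as independent, which neighbouring bins are not, so it serves as a fixed mark and measures no error between animals. With 20-kb bins there were 246 shared bins in 107 stretches, making up 32.6% of the brain-high and 57.7% of the fat body-high bins; brain was over 1 above fat body in 206 and below in 2, brain over 1 above glia in 170 and below in 1, and fat body over 1 above glia in 6 and below in 98. With 5-kb bins there were 334 stretches and a fat body share of 45.2%, with glia over brain in 19 and fat body over glia in 52. At a threshold of 1.5 the shared bins made up 41.6%, 38.6% and 48.8% of the brain, fat body and glial lists, with fat body and glia each over brain in 18. At 2.5 they made up 31.2% and 63.8% of the brain and fat body lists, with glia over brain in 3 and over fat body in 137. With at least 10 scored fragments fat body was over brain in 6 and glia over fat body in 129. Length weighting gave 32.7% and 57.4% of the brain and fat body lists and fat body over brain in 6. Fragments scored in all 3 profiles gave 31.2% and 62.2%, fat body over brain in 1 and glia over brain in 4. Centring on profile means gave glia over brain in 13. Without X the fat body share was 53.8%. Quantile normalization, run on fragments scored in all 3 profiles, gave 503 shared bins, 483 of them among the 517. They made up 41.3% of the brain and 47.8% of the glial list. In them brain was over fat body in 164 and below in 89, brain over glia in 33 and below in 114, and fat body over glia in 49. Joining stretches over at most 2 bins, an alternative chosen after seeing the data, gave 13 clusters of at least 100 kb and 36 compared bins inside clusters that were not shared, 29 of them with fat body alone below the threshold, and joining over at most 10 bins gave 165 such bins. The cause was not tested for any of these. The depth behind the ratios is unknown, so no counting error can be given.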

Other observations

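Outside the 6 arms, the heterochromatic scaffolds of the build held 21 bins with enough scored fragments in all 3 profiles, and 2 of these were at or above the threshold in each. Among the clusters with no locus name given here, the 12 shared bins on X from 8630001 and the 11 on 2L from 3530001 were the largest. The mean brain value minus the mean fat body value was 0.66 in the former and 3.49 in the latter on the centred scale. After quantile normalization it was -1.74 in the former, over the 8 of its bins that could be used, so that its direction turned, and 1.49 in the latter.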
